A study of Mus musculus with 12 samples.

Results

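The acute phase proteins described here are the products of 10 genes (Saa1, Saa2, Saa3, Saa4, Orm1, Orm2, Hp, Hpx, Lcn2 and Fgl1), chosen by name because they encode plasma proteins of the acute phase response. All 10 were found by symbol among the 55385 genes in the files, and all 10 were among the 15090 genes with enough reads to be tested. They were measured by RNA sequencing of primary mouse hepatocytes freshly isolated from 3 mice and transfected for 48 h with small interfering RNAs (siRNAs), short duplexes that direct the degradation of a matching transcript. The 12 libraries form 4 groups of 3. They are the double knockdown (siRNAs against Hnf4a and Cebpa together), siHnf4a (against Hnf4a alone), siCebpa (against Cebpa alone) and siCon (no siRNA against either gene). All cells, siCon included, grew on collagen in the same medium, which held 100 nM dexamethasone, a synthetic glucocorticoid, beside 10% serum, a 5% supplement of insulin, transferrin and selenium, and 2 mM glutamine. Each mouse gave 1 library to each group. The sources used here give no strain, sex or age of the mice and no siRNA sequences. The mouse and the day of its isolation and culture cannot be told apart.

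The acute phase response is the change in plasma proteins that the liver makes during infection or injury. Interleukin-6 and its relatives act through the receptor subunit gp130 and the transcription factor STAT3, interleukin-1 and tumour necrosis factor act through NF-kB, and glucocorticoids and the C/EBP family of basic leucine zipper factors strengthen the hepatocyte's reply. The serum amyloid A proteins are small apolipoproteins of high-density lipoprotein, the orosomucoids are carriers of basic and neutral drugs, haptoglobin and hemopexin bind free haemoglobin and haem, lipocalin-2 withholds iron by binding bacterial siderophores, and FGL1 is a liver-secreted fibrinogen-like protein. HNF4A is a nuclear receptor and C/EBPA a member of the C/EBP family, and both maintain gene expression in hepatocytes.

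Hpx was the 1 of the 10 genes that passed the test against siCon, and it did so in both groups that received the Hnf4a siRNA. It fell to 4177 ± 467 TPM in the double knockdown and 4757 ± 185 TPM in siHnf4a, against 9353 ± 812 TPM in siCon (mean ± SD, n = 3 mice each). TPM is the transcript abundance, scaled for transcript length and library size, that the authors deposited. Without a mouse term in the model, the siHnf4a call was lost on leaving out any 1 of its 6 libraries. The double knockdown call was lost on leaving out 3 of its 6, each in turn. Leaving out libraries with mouse as a block was added after the data were seen, and there both calls held without each of the 6. In both comparisons, 1 of 10 is no more than the share of all tested genes that passed, given with each comparison. With mouse as a block, Fgl1 was higher in siHnf4a than in siCebpa (0.94 ± 0.21 on the log2 scale, edgeR, adjusted p = 0.00601), and Saa2 was lower than in siCebpa in both groups that received the Hnf4a siRNA. None of these calls was made without the block over all libraries. With it, 31.2% of all genes passed in siHnf4a against siCebpa and 27.3% in the double knockdown against siCebpa. Both Saa2 calls were lost on leaving out most single libraries in turn, and the sum of Saa1 and Saa2 did not pass. Saa1, Saa2, Orm1 and Orm2 were highest in mouse 1 in all 4 groups, with all 4 of its libraries above the 8 of the other mice. Relative to the siCon library of the same mouse, Saa1 was lower in mouse 1 and higher in mice 2 and 3 in all 3 knockdowns, ratios that share 1 siCon library in each mouse.

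Libraries held 22453445 to 25008195 estimated read counts. Hnf4a stood at 13.6, 11.6 and 11.3 TPM in the double knockdown, 18.9, 20.9 and 16.6 TPM in siHnf4a, 61.1, 59.9 and 115 TPM in siCebpa and 54.3, 116 and 138 TPM in siCon, in the order of mice 1, 2 and 3, the order used for all values per library. Cebpa stood at 63.0, 52.8 and 47.9 TPM in the double knockdown, 116, 120.3 and 138 TPM in siHnf4a, 17.5, 16.3 and 13.7 TPM in siCebpa and 103, 126 and 111 TPM in siCon. Both targets were low where the labels say so. Cebpa fell by less in the double knockdown (-1.03 ± 0.12 on the log2 scale against siCon) than in siCebpa (-2.68 ± 0.13), a difference of 1.65 ± 0.13 (edgeR, adjusted p = 5.11e-05). Genes on the opposite strand overlap both targets and the strand setting of the counting is not given, whereas no annotated gene overlaps any of the 10 acute phase genes. The sum of 12 hepatocyte markers lay between 5514 and 9262 CPM (counts scaled to the library's total) in the double knockdown, between 6904 and 13174 CPM in siHnf4a, between 7951 and 16800.0 CPM in siCebpa and between 8344 and 12279 CPM in siCon. Alb, also listed among the negative acute phase genes, supplied 74.0 to 82.8% of the sum of these markers in each library. Of these 12, 1 rose and 2 fell in the double knockdown against siCon (median log2 difference -0.58), 1 rose and 1 fell in siHnf4a (median 0.00) and none passed in siCebpa (median -0.25, 1 at an unadjusted p under 0.05, 0 by DESeq2). With mouse as a block, 2 rose and 6 fell in the double knockdown, 3 rose and 2 fell in siHnf4a, and 0 rose and 3 fell in siCebpa. Among all tested genes 14.0%, 14.5% and 4.67% passed in these 3 groups, and 29.5%, 30.0% and 16.8% with the block. Of 13 Kupffer cell and macrophage markers, Cd68 held 248 to 415 CPM in the 4 libraries of mouse 1 and 49.97 to 121 CPM in the other 8. The sum of the other 12 lay between 3.72 and 7.48 CPM in the double knockdown, between 3.13 and 10.6 in siHnf4a, between 4.16 and 9.78 in siCebpa and between 6.41 and 21.9 in siCon, and Timd4 was at 0 in 10 of 12 libraries. The 11 neutrophil markers summed to at most 1.55 CPM in any library. Of 6 markers of fat cells, Lep and Cfd were at 0 in all 12 libraries, and Adipoq, Plin1 and Retn reached at most 0.165 CPM. Cidec held 0.617 to 14.6 CPM and was the 1 of them that was tested. It fell in the double knockdown (log2 difference -2.44) and in siHnf4a (-2.51) and did not pass in siCebpa (0.23).

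As a sum the 10 transcripts were abundant in these cultures, but unevenly. Lcn2, Hpx and Hp stood highest, while Saa2 ranked from 1021 to 7746 among all genes by TPM. Together they took 2.06, 1.72 and 3.08% of all TPM in the double knockdown, 2.17, 2.17 and 2.62% in siHnf4a, 2.90, 1.92 and 1.08% in siCebpa and 3.56, 2.74 and 2.66% in siCon. In siCon, Lcn2 averaged 10767 ± 2393 TPM, Hpx 9353 ± 812, Hp 7208 ± 720.2, Saa3 1433 ± 1567, Orm1 431 ± 309, Fgl1 247 ± 87.9, Saa1 245 ± 261, Saa4 82.0 ± 39.0, Saa2 60.6 ± 68.5 and Orm2 55.8 ± 49.2 TPM (SD, n = 3 mice). Of the 9 pairs of neighbours in this order, Hpx over Hp and Hp over Saa3 were the pairs whose siCon ranges did not overlap, while the ranges of the other 7 pairs overlapped. Within a mouse, Lcn2 was above Hpx, Saa3 above Orm1, Orm1 above Fgl1 and Saa1 above Saa4 in 3 of 3 siCon libraries. Lcn2 ranked 3, 4 and 6 among all genes by TPM in the siCon libraries and 21 in the siCebpa library of mouse 3, its lowest rank. In that siCebpa library 6 of the 10 genes, Saa3, Saa4, Hp, Hpx, Lcn2 and Fgl1, were at their lowest of the 12 libraries, as were 13.4% of all tested genes. In bulk RNA, fewer cells that express a gene and less of its RNA per cell cannot be told apart.

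**Figure D1:**
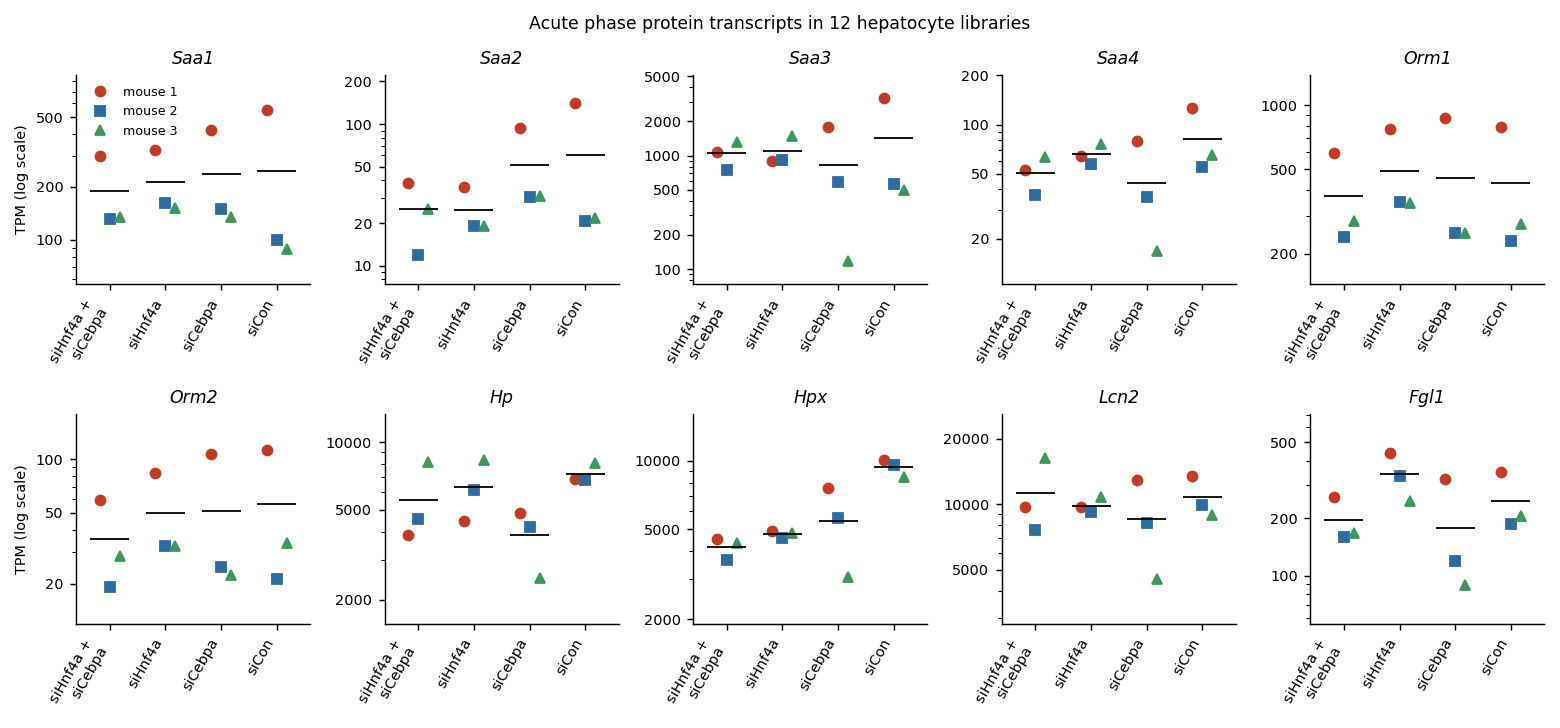
TPM of the 10 acute phase genes in each of 12 libraries, on log axes, by group from left (double knockdown) to right (siCon), with 1 point a mouse and a line at the group mean. The Hpx points of the double knockdown, siHnf4a and siCebpa all lie below the 3 siCon points. The red points of mouse 1 lie on top in all groups for Saa1, Saa2, Orm1 and Orm2.

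Serum amyloid A1 and A2 are the inducible plasma forms in the mouse, Saa3 is made by liver, macrophages and fat, and Saa4 is the constitutive member of the family. The 4 genes lie side by side on chromosome 7 (Saa1 at chr7:46740497-46742980, Saa2 at chr7:46751790-46754313, Saa3 at chr7:46711998-46715700 and Saa4 at chr7:46727998-46732603, GRCm38). The promoters of Saa1 (chr7:46742931-46743230, minus strand) and Saa2 (chr7:46751583-46751882, plus strand) are shown because the gene pair is nearly identical there and its ratio is given below. The sequences run from 250 bases before to 50 bases after the start that RefSeq annotates, are taken from RefSeq on GRCm38.p6, and have in capitals every match to the C/EBP motif TTGCNNAA.
Saa1: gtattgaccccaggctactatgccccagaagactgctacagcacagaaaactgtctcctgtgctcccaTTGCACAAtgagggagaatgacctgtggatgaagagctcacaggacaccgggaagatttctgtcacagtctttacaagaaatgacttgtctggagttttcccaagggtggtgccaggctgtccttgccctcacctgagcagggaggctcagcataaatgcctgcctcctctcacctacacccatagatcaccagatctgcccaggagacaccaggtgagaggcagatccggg
Saa2: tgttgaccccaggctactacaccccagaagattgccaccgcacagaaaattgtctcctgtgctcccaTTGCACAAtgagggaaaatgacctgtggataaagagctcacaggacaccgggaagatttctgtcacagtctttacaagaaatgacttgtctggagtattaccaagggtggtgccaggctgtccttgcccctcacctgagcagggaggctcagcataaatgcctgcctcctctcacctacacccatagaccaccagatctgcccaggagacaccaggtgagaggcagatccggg
The pair is 96.0% identical over 299 aligned bases, and both hold TTGCACAA, with its first base 182 bases before the Saa1 start and 183 bases before the Saa2 start.

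Saa1 had 299.8, 132 and 134 TPM in the double knockdown, 324, 161 and 152 in siHnf4a, 423, 149.7 and 134 in siCebpa and 547, 99.0 and 89.0 in siCon. Mouse 1 was highest in each group, and the groups overlapped. Saa2 had 38.3, 11.8 and 25.04 TPM in the double knockdown, 35.8, 19.2 and 19.1 in siHnf4a, 93.9, 30.4 and 31.04 in siCebpa and 139.7, 20.5 and 21.6 in siCon, again with mouse 1 on top in each group and with overlapping groups. The ratio of Saa1 to Saa2 in TPM was 7.82, 11.1 and 5.36 in the double knockdown, 9.04, 8.39 and 7.96 in siHnf4a, 4.51, 4.92 and 4.32 in siCebpa and 3.91, 4.82 and 4.13 in siCon, so every library that received the Hnf4a siRNA lay above every library that did not. This ratio was picked out after its values were seen and is given with no test. Of the 31-base words of the Saa1 transcripts, 46.0% also occur in Saa2, and the counting divides reads of such words between the genes by estimation, so the single values of this pair are uncertain. With both genes added together, the log2 difference from siCon was -0.52 ± 0.72 in the double knockdown, -0.38 ± 0.72 in siHnf4a and 0.06 ± 0.72 in siCebpa (edgeR, lowest adjusted p = 0.689). In the model with the mouse term, the block, this sum differed by -0.15 ± 0.26 in the double knockdown, 0.01 ± 0.26 in siHnf4a, where the sign turned, and 0.32 ± 0.26 in siCebpa, and passed in none.

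Saa3 had 1085, 747 and 1319.6 TPM in the double knockdown, 900.4, 922 and 1496 in siHnf4a, 1788, 584 and 117 in siCebpa and 3241, 565 and 493 in siCon. The values ran from 117 TPM in mouse 3 of siCebpa to 3241 TPM in mouse 1 of siCon, the widest spread of the 10 genes at 4.58 log2 units, and the groups overlapped. Macrophages also make Saa3. Cd68 made up most of the summed Kupffer markers, 263 to 423 CPM in mouse 1 and 59.8 to 124 CPM in mice 2 and 3. The sum of the other 12 was 7.48, 3.72 and 5.67 CPM in the double knockdown, 8.07, 3.13 and 10.6 in siHnf4a, 4.67, 4.16 and 9.78 in siCebpa and 15.3, 6.41 and 21.9 in siCon in mice 1, 2 and 3, so mouse 3 was above mouse 1 in 3 of 4 groups. The median log2 difference of the 11 tested markers from siCon was -1.25 in the double knockdown, -1.01 in siHnf4a and -1.23 in siCebpa, with none past the threshold, 2, 0 and 1 at an unadjusted p under 0.05, 0 by DESeq2, and 6, 3 and 3 lower with mouse as a block. Among all tested genes 14.0%, 14.5% and 4.67% passed in these 3 groups, and 29.5%, 30.0% and 16.8% with the block. The part of the Kupffer markers in the Saa3 values was not tested. Saa4 had 52.4, 36.9 and 63.1 TPM in the double knockdown, 64.4, 57.2 and 76.0 in siHnf4a, 79.4, 36.1 and 16.8 in siCebpa and 127, 54.6 and 64.8 in siCon, and its libraries ordered much like those of Saa3 (Pearson r of log2 CPM 0.90 over the 12 libraries, which share mice and treatments).

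The orosomucoids, or alpha-1-acid glycoproteins, lie together on chromosome 4 with Orm3, another copy that is not among the 10. The promoter of Orm2 (chr4:63362199-63362498, plus strand) is shown as the one at hand for this pair, with the C/EBP match in capitals.
Orm2: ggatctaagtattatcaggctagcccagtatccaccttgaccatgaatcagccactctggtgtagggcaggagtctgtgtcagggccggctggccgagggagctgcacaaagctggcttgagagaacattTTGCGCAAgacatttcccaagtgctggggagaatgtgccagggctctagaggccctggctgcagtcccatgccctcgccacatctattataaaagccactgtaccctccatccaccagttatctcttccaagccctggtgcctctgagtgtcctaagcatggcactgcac
The match, TTGCGCAA, begins 120 bases before the start. Orm1 had 595, 239 and 287 TPM in the double knockdown, 769, 352 and 347 in siHnf4a, 871, 251 and 250.4 in siCebpa and 787, 230.2 and 277 in siCon. Orm2 had 59.0, 19.1 and 28.7 TPM in the double knockdown, 83.7, 32.4 and 32.5 in siHnf4a, 107, 24.9 and 22.3 in siCebpa and 112, 21.4 and 34.0 in siCon. Both were highest in mouse 1 in every group, and their treatment groups overlapped throughout. Of the Orm1 words of 31 bases, 27.5% occur in another gene, and the sum of Orm1, Orm2 and Orm3 differed from siCon by -0.22 ± 0.65 in the double knockdown, 0.17 ± 0.65 in siHnf4a and 0.24 ± 0.65 in siCebpa on the log2 scale, none of which passed the test. Under the block it differed by -0.09 ± 0.15, 0.31 ± 0.15 and 0.21 ± 0.15 in these 3 groups, again with none past the threshold.

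Hemopexin, encoded by Hpx (chr7:105591613-105600137, minus strand), carries free haem back to the liver. Its promoter (chr7:105600067-105600366, minus strand) is shown because Hpx is the gene that passed the test, with the C/EBP match in capitals.
Hpx: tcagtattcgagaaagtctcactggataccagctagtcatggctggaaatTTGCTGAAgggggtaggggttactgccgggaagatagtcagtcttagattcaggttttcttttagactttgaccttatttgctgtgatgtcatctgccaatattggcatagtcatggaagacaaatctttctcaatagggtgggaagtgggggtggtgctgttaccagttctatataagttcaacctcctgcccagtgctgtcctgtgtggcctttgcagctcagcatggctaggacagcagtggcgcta
The match, TTGCTGAA, begins 200 bases before the start, and the word searched for HNF4A is not in this window. Hpx had 4544, 3651 and 4334 TPM in the double knockdown, 4927, 4559.7 and 4785 in siHnf4a, 7579.9, 5593 and 3066 in siCebpa and 10055, 9541 and 8463 in siCon. By TPM, all 6 libraries that received the Hnf4a siRNA lay below all 3 siCon libraries, and so did the 3 siCebpa libraries. By CPM, the siCebpa libraries overlapped siCon. The siCebpa libraries ranged from 7579.9 TPM in mouse 1 down to 3066 TPM in mouse 3, the lowest Hpx value of the study.

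Haptoglobin, encoded by Hp (chr8:109575128-109579172, minus strand), binds free haemoglobin. Hp had 3882, 4565 and 8168 TPM in the double knockdown, 4466, 6129.6 and 8334 in siHnf4a, 4851, 4209.8 and 2503 in siCebpa and 6820.1, 6765 and 8039 in siCon. Its 3 siCebpa libraries lay below all siCon libraries, while the double knockdown and siHnf4a overlapped siCon and were highest in mouse 3. Lipocalin-2, encoded by Lcn2 (chr2:32384633-32388252, minus strand), had 9738, 7637 and 16228 TPM in the double knockdown, 9669, 9168 and 10740.4 in siHnf4a, 12932, 8201 and 4535 in siCebpa and 13460.0, 9956 and 8885 in siCon. Its highest library was the double knockdown of mouse 3 and its lowest the siCebpa library of the same mouse, and no 2 groups stood apart. Neutrophils store lipocalin-2, and the defining neutrophil markers S100a8 and S100a9 reached at most 0.239 and 0.0443 CPM in any library. Fgl1 (chr8:41191434-41215156, minus strand), a ligand of the T cell receptor LAG-3, had 259, 159 and 168 TPM in the double knockdown, 442, 332 and 246 in siHnf4a, 323, 119 and 89.4 in siCebpa and 348, 187 and 206 in siCon. It was higher in siHnf4a than in siCon in all 3 mice and lower in the double knockdown than in siHnf4a in all 3, differences that did not pass the test.

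Promoter sequences were at hand for 7 of the 10 genes (Saa1, Saa2, Saa3, Saa4, Orm2, Hpx and Lcn2). All 7 hold the C/EBP word TTGCNNAA on either strand, which 10.8% of 32851 mouse promoters of the same length hold. Lcn2 also holds the glucocorticoid receptor word ACANNNTGT, found in 6.85% of promoters. None of the 7 holds the words used for NF-kB (GGANNTTCC, 4.26% of promoters), STAT3 (TTCNNNGAA, 8.30%) or HNF4A (CAAAGTNCA, 1.41%). Both strands were searched. A match is a stretch of letters and no measurement of binding, and a word that is missing says only that these letters are not in this window.

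In the double knockdown against siCon, Hpx fell by 1.13 ± 0.27 on the log2 scale (95% interval -1.72 to -0.55, edgeR quasi-likelihood test, adjusted p = 0.017 over all tested genes). Within the mice the log2 ratios of CPM were -1.14, -1.37 and -0.91, lower in 3 of 3. It was the 1 of 10 genes that passed, where 14.0% of all tested genes did, and the 1 whose libraries did not overlap siCon, where 32.8% of all tested genes did not. The other log2 differences ran from -1.26 ± 0.77 for Saa2 to 0.09 ± 0.37 for Lcn2, with the median of the 10 genes at -0.40 and that of all tested genes at 0.00. The Hpx call depended on single libraries: it was lost with an adjusted p of 0.0795 without the double knockdown of mouse 2, 0.0513 without that of mouse 3 and 0.0569 without siCon of mouse 2, at log2 differences of -1.03, -1.17 and -1.13. On log2(TPM + 1) with no filter, limma also gave no call (adjusted p = 0.0764). In the model with a term for the mouse (a block) it held without any of the 6 libraries (highest adjusted p = 0.0214), and it held without the 4 libraries of mouse 1 (-1.13, adjusted p = 0.0213).

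In siHnf4a against siCon, Hpx fell by 0.96 ± 0.27 (95% interval -1.54 to -0.37, edgeR, adjusted p = 0.0354), with within-mouse log2 ratios of -0.99, -1.04 and -0.82. It was again the 1 of 10 genes that passed, where 14.5% of all tested genes did, and the 1 whose libraries did not overlap siCon, where 33.7% of all genes did not. The other log2 differences ran from -1.31 ± 0.77 for Saa2 to 0.48 ± 0.46 for Fgl1, and the median of the 10 was -0.20. Leaving out any 1 of the 6 libraries of this comparison ended the call, with log2 differences of -1.02 to -0.88 and adjusted p of 0.0689 to 0.127. It was also lost in limma on log2(TPM + 1) with no filter (adjusted p = 0.138). With mouse as a block it held in all 6 (highest adjusted p = 0.0379), and it held without mouse 1 (-0.93, adjusted p = 0.0408).

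**Figure D2:**
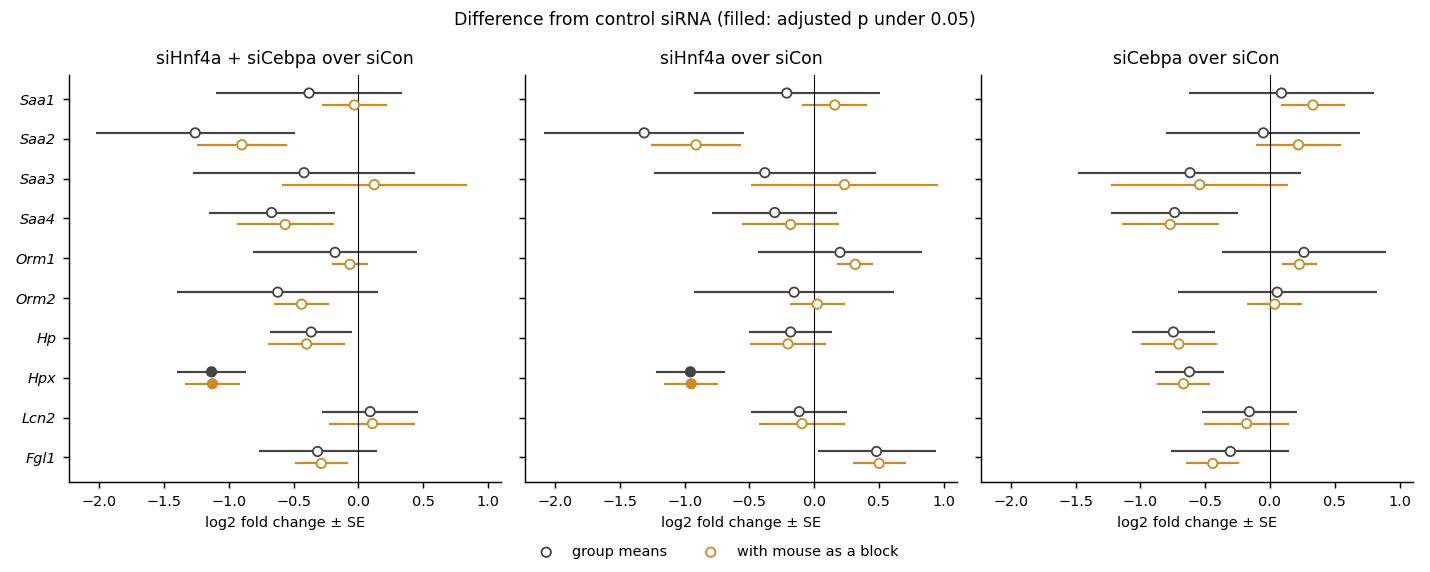
Log2 fold change and SE of the 10 genes in each knockdown against siCon from the edgeR model with group means (dark) and with mouse as a block (orange), with filled points for an adjusted p under 0.05. Hpx is filled in the double knockdown and in siHnf4a under both models, and no point is filled in siCebpa.

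In siCebpa against siCon none of the 10 genes passed edgeR's test, where 4.67% of all tested genes did. At an unadjusted p under 0.05 there were 2, Hp (-0.75 ± 0.32, adjusted p = 0.217) and Hpx (-0.62 ± 0.26, adjusted p = 0.213), and DESeq2, limma and edgeR with mouse as a block also called 0. Both were lower in 3 of 3 mice, with log2 ratios of -0.34, -0.55 and -1.51 for Hp and -0.25, -0.61 and -1.29 for Hpx, lowest in mouse 3. By CPM, Hp was the 1 gene of the 10 whose libraries did not overlap siCon, where 23.7% of all tested genes did not. By TPM, the siCebpa libraries of Hpx also lay below all siCon libraries. Without the siCebpa library of mouse 1, Hpx passed (-0.96, adjusted p = 0.0455), and without that of mouse 3 its log2 difference was -0.34 (adjusted p = 0.404). The siCebpa, siHnf4a and double knockdown comparisons share the same 3 siCon libraries.

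None of the 10 genes passed in the double knockdown against siHnf4a, where 0.00663% of all tested genes did, which is 1 gene, Cebpa itself. None had an unadjusted p under 0.05 in edgeR, and DESeq2, limma and edgeR with the block called 0. The Hpx difference was -0.18 ± 0.26 (95% interval -0.76 to 0.40) and that of Fgl1 -0.80 ± 0.46 (95% interval -1.80 to 0.21). In the double knockdown against siCebpa none passed either, against 13.0% of all tested genes, with 0 at an unadjusted p under 0.05 and 0 by DESeq2 or limma. Saa2 was, under the block, lower in the double knockdown (-1.12 ± 0.34, adjusted p = 0.034), where 27.3% of all genes passed. That call was lost without 5 of the 6 libraries in turn (adjusted p of 0.0641 to 0.159) and held without the double knockdown of mouse 3. Leaving out the siCebpa library of mouse 3 brought Hpx past the threshold without the block (-0.79, adjusted p = 0.0311).

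Between the single knockdowns, siHnf4a against siCebpa, none of the 10 passed, with 0 at an unadjusted p under 0.05 and 0 by DESeq2 or limma, where 16.2% of all tested genes passed. With mouse as a block, where 31.2% passed, Fgl1 was higher in siHnf4a (0.94 ± 0.21, adjusted p = 0.00601) and Saa2 was lower (-1.13 ± 0.34, adjusted p = 0.0289). The within-mouse log2 ratios were 0.32, 1.33 and 1.27 for Fgl1 and -1.53, -0.87 and -0.99 for Saa2, each with 1 sign in 3 of 3 mice. The Fgl1 call with the block held without each of the 6 libraries in turn, while that of Saa2 was lost without 5 of them (adjusted p of 0.0539 to 0.148) and held without siHnf4a of mouse 2. The Saa2 value carries the uncertainty of the division of reads between Saa1 and Saa2: the sum of both differed by -0.31 ± 0.26 with mouse as a block (adjusted p = 0.409). Without the siCebpa library of mouse 1, Fgl1 passed without the block as well (1.57, adjusted p = 0.0144). The interaction, which asks whether the effect of both siRNAs together departs from the sum of the single effects, was called for none of the 10, where 0.0861% of all genes were called, or 3.82% with mouse as a block, again with 0 at an unadjusted p under 0.05 and 0 by DESeq2, limma or the block. It was 0.44 ± 0.37 for Hpx, with a 95% interval of -0.38 to 1.26. Cebpa itself fell less in the double knockdown than in siCebpa. A departure from the sum and the weaker Cebpa knockdown therefore cannot be told apart.

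The spread between mice was wider than that between treatments for Saa1, Saa2, Saa3, Orm1, Orm2, Lcn2 and Fgl1, and narrower for Saa4, Hp and Hpx, by the range of mean log2 CPM. In the model with mouse as a block, the term for mouse passed for 5 of the 10 genes, where it passed for 26.8% of all tested genes. These were Orm1 (adjusted p = 2.01e-05), Orm2 (8.69e-05), Saa1 (0.000432), Saa2 (0.00204) and Fgl1 (0.00252). For Orm1 the means of the 3 mice spanned 1.56 log2 units and the means of the 4 treatments 0.38, whereas for Hpx the mice spanned 0.44 and the treatments 1.14. Mouse 1 was the highest of the 3 mice in all 4 groups for 6 of the 10 genes (Saa1, Saa2, Orm1, Orm2, Hpx and Fgl1), where this held for 11.8% of all tested genes. For Saa1, Saa2, Orm1 and Orm2 all 4 libraries of mouse 1 lay above all 8 others, where this held for 2.93% of all genes. Saa1 shares reads with Saa2, and Orm1 with Orm2. The counts of 4, 5 and 6 genes given here therefore do not stand for as many separate cases.

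Orm1 in mouse 1 exceeded the mean TPM of mice 2 and 3 2.26-fold in the double knockdown, 2.20-fold in siHnf4a, 3.48-fold in siCebpa and 3.10-fold in siCon. Saa1 in mouse 1 exceeded that mean 2.25-fold in the double knockdown, 2.07-fold in siHnf4a, 2.98-fold in siCebpa and 5.82-fold in siCon. For Saa3 the gap was wide in the groups without the Hnf4a siRNA and narrow in those with it. Its mouse 1 stood at 1.05 times the mean of mice 2 and 3 in the double knockdown, 0.745 in siHnf4a, 5.10 in siCebpa and 6.13 in siCon, a pattern noticed in the values and not tested. The sum of the hepatocyte markers lay between 9262 and 16800.0 CPM in mouse 1 and between 5514 and 12230.3 CPM in mice 2 and 3. That of 7 cholangiocyte markers lay between 33.1 and 79.7 CPM in mouse 1 and between 107 and 269.7 CPM in mice 2 and 3. In each library the top gene supplied much of this sum, 45.1 to 54.9% in mouse 1 and 70.8 to 90.7% in mice 2 and 3. The most abundant of the 7, Spp1, ran from 16.0 to 207 CPM, so the sum mainly follows 1 gene. The part of these marker differences in the acute phase values was not tested.

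**Figure D3:**
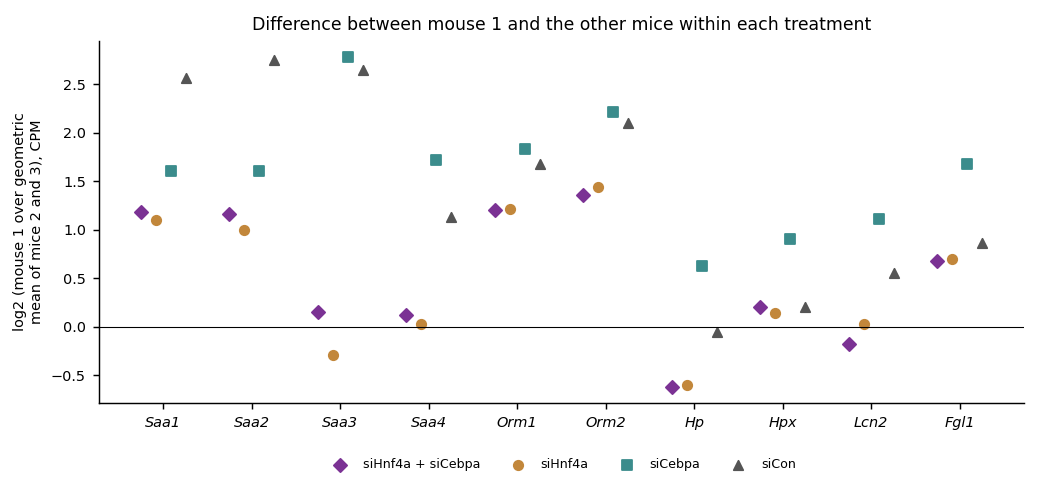
Log2 ratio of mouse 1 over the geometric mean of mice 2 and 3 in CPM for each gene, with 1 point for each treatment group. Saa1, Saa2, Orm1 and Orm2 lie above 1 log2 unit in all 4 groups, while Saa3 lies above 2.5 in siCebpa and siCon and near 0 in the double knockdown and siHnf4a.

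The Saa1 ratios to siCon differed in sign between mice. The log2 ratio of Saa1 to the siCon library of the same mouse was -0.87, 0.38 and 0.63 in the double knockdown, -0.74, 0.68 and 0.75 in siHnf4a and -0.22, 0.71 and 0.76 in siCebpa, negative in mouse 1 and positive in mice 2 and 3. In each mouse these 3 ratios share 1 siCon library, and siCon of mouse 1 was the highest Saa1 library of the study, so their signs are not independent. Over all 12 libraries its 95% intervals were -1.96 to 1.203 in the double knockdown and -1.79 to 1.37 in siHnf4a. Leaving out the 4 libraries of mouse 1 was chosen after these signs were seen and leaves 2 mice in each group, so its counts describe mice 2 and 3 and lend no support to a difference between mice. In that setting 2 of the 10 genes passed in each comparison, Saa1 (higher) with Hpx (lower) in the double knockdown and in siHnf4a, and Saa1 (higher) with Fgl1 (lower) in siCebpa, where 16.9%, 17.3% and 6.87% of all genes did, and 1, Fgl1 (higher), passed in siHnf4a against siCebpa, where 18.7% did. Adding the block, 2 passed in the double knockdown against siCon (27.2% of all genes), 4 in siHnf4a (27.4%) and 3 in siCebpa (17.1%). For the double knockdown against siCebpa 2 passed (24.9%), for siHnf4a against siCebpa 4 (28.7%) and for the interaction 1 (1.73%).

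Saa3 had ratios of -1.54, 0.43 and 1.46 in the double knockdown and -1.80, 0.72 and 1.57 in siHnf4a, again lower in mouse 1 and higher in the other 2, but -0.69, 0.22 and -1.85 in siCebpa. All 6 Hpx ratios of the double knockdown and siHnf4a lay between -1.37 and -0.82. The summed hepatocyte markers of both groups overlapped those of siCon. Within mice, the double knockdown sum was below siCon in mice 1, 2 and 3. The values were 9262 against 12279, 6045 against 10139 and 5514 against 8344 CPM. The siHnf4a sum was above siCon in mice 1 and 2 (13174 and 12230 CPM) and below it in mouse 3 (6904 CPM). The part of these markers in the Hpx difference was not tested.

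**Figure D4:**
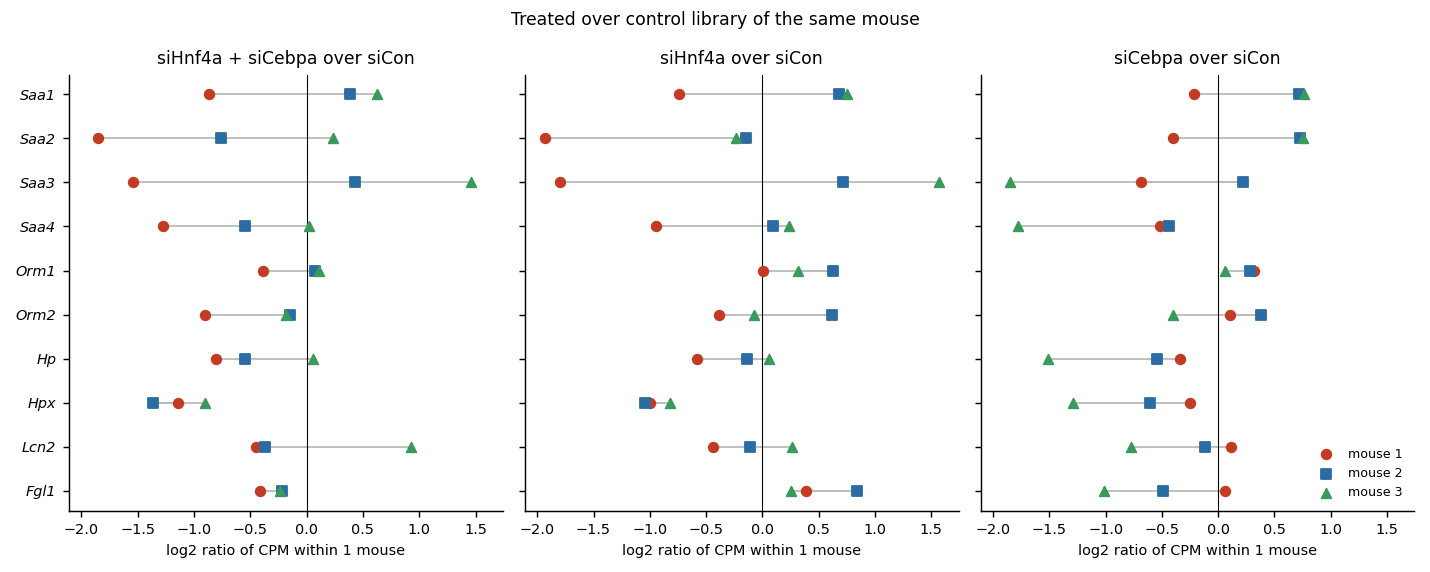
Log2 ratio of CPM between each knockdown library and the siCon library of the same mouse, for the 10 genes, with 1 point a mouse joined by a grey line. The Hpx points of the double knockdown and siHnf4a all lie near -1, while those of Saa1 and Saa3 fall on both sides of 0.

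The genes varied together in part over the 12 libraries. The Pearson correlation of log2 CPM was 0.95 for Saa1 with Orm1, 0.93 for Saa1 with Orm2, 0.86 for Saa3 with Lcn2 and 0.84 for Saa4 with Lcn2, but -0.17 for Saa1 with Hp and 0.27 for Saa1 with Hpx. The 12 points share 3 mice and 4 treatments, so these values describe the libraries only. Among all other tested genes with a mean of at least 10 CPM, those most like Saa3 were Sod2 (r = 0.97), the mitochondrial superoxide dismutase, Tjp3 (0.95) and Cd47 (0.95). Those most like Hpx were Sat1 (0.96), C2 (0.95), a complement component, and Asxl2 (0.94). Saa1 and Orm1 had the same first match, Mup9 (0.94 and 0.96), a major urinary protein of a family with near-identical copies, and Orm1 and Orm2 both had Bckdhb, a subunit of branched-chain keto acid dehydrogenase, and Rpl30 among their 3. Most like Lcn2 was Pdzrn3 (0.92), most like Hp Pik3ap1 (0.92), most like Fgl1 Ppp1r3b (0.96), most like Saa4 C1s1 (0.93) and most like Saa2 Sord (0.92).

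Other genes of the positive acute phase response moved in both directions. Of 29 tested, 1 rose and 6 fell in the double knockdown against siCon, where 14.0% of all genes passed, with a median log2 difference of -0.70. With mouse as a block, where 29.5% of all genes passed, 2 rose and 14 fell. The log2 difference was -1.495 ± 0.24 for Cfb, complement factor B, -1.30 ± 0.29 for Serpina1a, an alpha-1-antitrypsin, -1.24 ± 0.32 for Cd14, a coreceptor for endotoxin, and -1.18 ± 0.27 for C4b, complement C4, and the gene that rose was Mt2, a metallothionein (0.82 ± 0.23). Serpina1a and C4b have near-identical copies and their counts are uncertain. In siHnf4a against siCon, where 14.5% of all genes passed, 4 rose and 3 fell, with a median of -0.25. With the block, where 30.0% of all genes passed, 6 rose and 9 fell. Mt2 (1.19 ± 0.23) rose with Mt1 (1.00 ± 0.29), while Cd14 (-1.25 ± 0.32), Cfb (-1.16 ± 0.24) and Serpina1a (-1.05 ± 0.29) fell. The 2 others that rose were the fibrinogen chains Fga (0.98 ± 0.18) and Fgb (0.94 ± 0.22), which lie outside the naming rule and were picked out after their values were seen.

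Fga had 341, 404 and 263 TPM in the double knockdown, 704, 943 and 631 in siHnf4a, 268, 204 and 236 in siCebpa and 379.5, 366 and 424 in siCon, so the siHnf4a libraries stood above all others. In siCebpa against siCon none of the 29 passed edgeR's test, where 4.67% of all genes did. There were 5 at an unadjusted p under 0.05, 2 by DESeq2 and, with mouse as a block, where 16.8% of all genes passed, 1 higher and 7 lower. The most abundant of them, C3, the central complement component, differed by -0.36 ± 0.25 there.

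**Figure D5:**
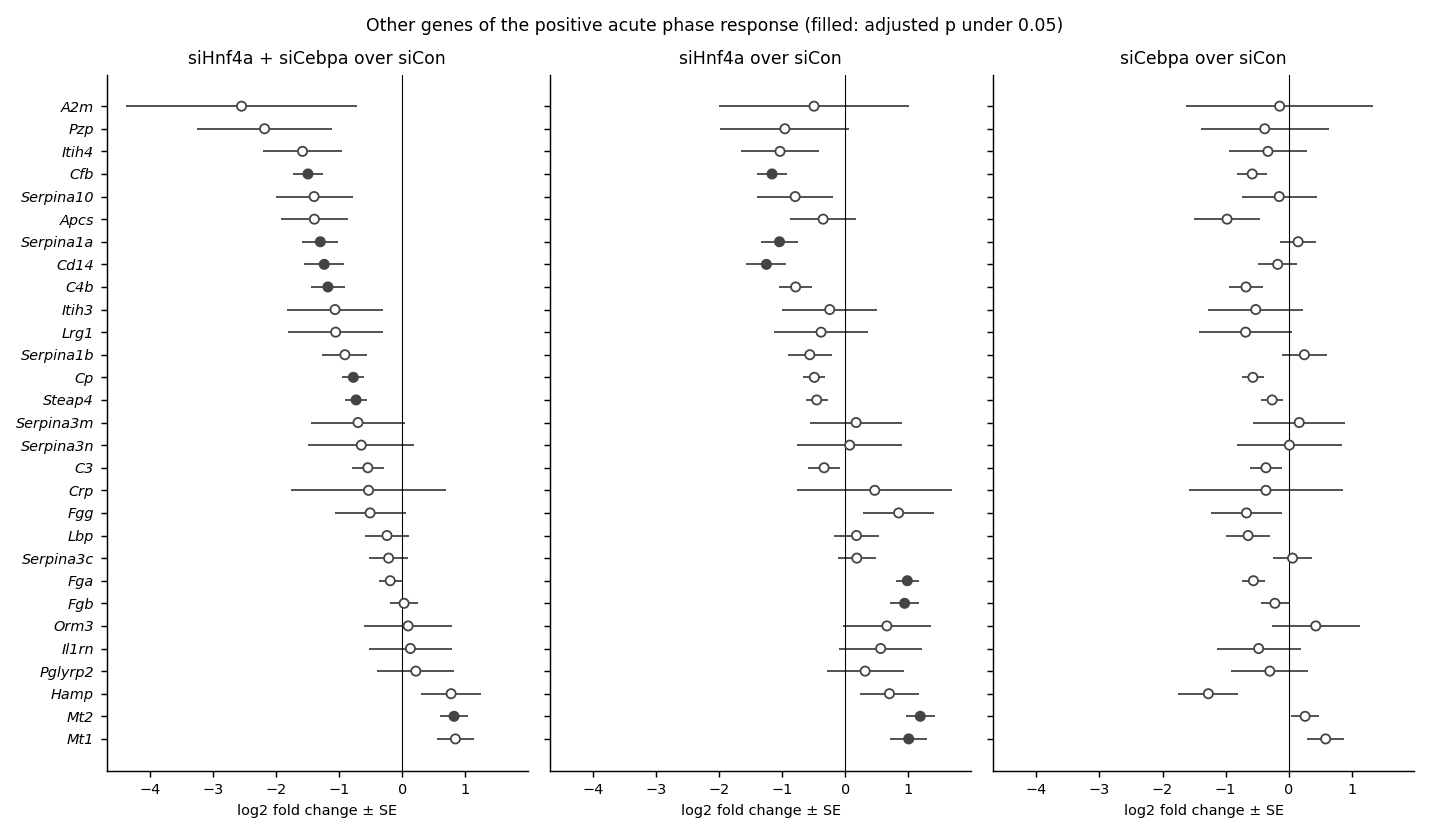
Log2 fold change and SE of 29 other positive acute phase genes in each knockdown against siCon, ordered by the double knockdown, with filled points for an adjusted p under 0.05. Filled points lie on both sides of 0 in the double knockdown (1 above, 6 below) and in siHnf4a (4 above, 3 below), and none is filled in siCebpa.

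Negative acute phase genes are those whose plasma proteins fall during inflammation. Of 14, 0 rose and 6 fell in the double knockdown (median -0.85), and with the block 1 rose and 10 fell. The largest were Mup20, a major urinary protein (-7.66 ± 0.85), F12, coagulation factor XII (-3.14 ± 0.65), Trf, transferrin (-2.17 ± 0.23), and Igf1 (-1.67 ± 0.40). In siHnf4a 1 rose, Fetub (0.84 ± 0.23), a fetuin, and 3 fell, Mup20 (-6.29 ± 0.78), F12 (-2.57 ± 0.63) and Trf (-2.06 ± 0.23), with a median of -0.17, and with the block 2 rose and 6 fell. In siCebpa none passed, with 1 at an unadjusted p under 0.05, 0 by DESeq2 and 3 with the block, and Trf, the most abundant, differed by -0.20 ± 0.23. Both the positive and the negative acute phase genes held more genes that fell than rose in the double knockdown, beside 1041 that rose and 1076 that fell among all tested genes. The share of all tested genes that passed was 14.0% there, 14.5% in siHnf4a and 4.67% in siCebpa. With the block it was 29.5%, 30.0% and 16.8%.

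Of 18 tested receptors and relays of the acute phase cytokines, 3 rose and 1 fell in the double knockdown (median 0.13), with the block 5 and 4. Of all tested genes, 14.0% passed there, 14.5% in siHnf4a and 4.67% in siCebpa, or 29.5%, 30.0% and 16.8% with the block. Both receptors of tumour necrosis factor rose, Tnfrsf1b (1.55 ± 0.24) and Tnfrsf1a (0.34 ± 0.07), as did Ly96, the partner of Toll-like receptor 4 (0.73 ± 0.19), while Il22ra1, a receptor chain for interleukin-22, fell (-1.21 ± 0.16). In siHnf4a 5 rose and 1 fell (median 0.19), and 6 and 3 with the block, led by Tnfrsf1b (1.34 ± 0.24), Il22ra1 (-1.29 ± 0.16), Il6ra, the interleukin-6 receptor (1.15 ± 0.34), and Osmr, the oncostatin M receptor (0.62 ± 0.15). In siCebpa Osmr fell (-0.74 ± 0.15) and Irak1, a kinase of interleukin-1 signalling, rose (0.26 ± 0.06), and with the block 2 rose and 2 fell. Osmr had 13.0, 16.3 and 14.3 TPM in the double knockdown, 18.7, 18.5 and 14.9 in siHnf4a, 8.49, 7.42 and 5.25 in siCebpa and 14.2, 11.8 and 10.6 in siCon, so siHnf4a lay above and siCebpa below siCon in every library.

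Of 18 transcription factors that drive acute phase genes, 0 rose and 4 fell in the double knockdown (median -0.04), and with the block 3 rose and 6 fell. Among all tested genes 14.0% passed there, 14.5% in siHnf4a and 4.67% in siCebpa, or 29.5%, 30.0% and 16.8% with the block. Creb3l3, a liver factor cleaved under stress of the endoplasmic reticulum (-3.12 ± 0.23), fell most, and Nfkb1 (-0.61 ± 0.17) and Stat5b (-0.41 ± 0.06) were also among those that fell. In siHnf4a 2 rose and 3 fell. Creb3l3 (-2.30 ± 0.22) and Stat5b (-0.34 ± 0.06) were among those that fell and Stat3 (0.34 ± 0.07) among those that rose, and with the block 4 rose and 5 fell. In siCebpa Cebpd, a C/EBP factor induced in the acute phase, was the 1 that rose (0.76 ± 0.15), and Creb3l3 (-0.86 ± 0.21) was among the 2 that fell. Cebpd had 32.9, 38.9 and 52.7 TPM in the double knockdown, 26.7, 27.1 and 28.1 in siHnf4a, 42.9, 55.4 and 49.8 in siCebpa and 33.4, 32.0 and 31.8 in siCon, with every siCebpa library above every siCon library.

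Feedback genes of STAT3 and NF-kB passed about as often as all tested genes, of which 14.0% passed in the double knockdown, 14.5% in siHnf4a and 4.67% in siCebpa. Of 17, 1 rose (Il4ra, an interleukin-4 receptor chain, 0.86 ± 0.08) and 1 fell (Cish, a suppressor of cytokine signalling, -2.09 ± 0.34) in the double knockdown, and the same 2 genes did so in siHnf4a (0.77 ± 0.08 for Il4ra and -1.75 ± 0.34 for Cish). In siCebpa 1 fell, Fosl2, an AP-1 factor (-0.49 ± 0.09). With the block these counts were 2 up and 4 down, 1 up and 4 down, and 0 up and 5 down, where 29.5%, 30.0% and 16.8% of all genes passed. Of the cytokines themselves, 7 of 10 were tested, Lif was the most abundant with 9.03 to 31.3 TPM over the 12 libraries, and Il6 stayed at or below 0.635 TPM. Ctf1, cardiotrophin-1, fell in the double knockdown (-1.22 ± 0.27), and none passed in siHnf4a or siCebpa in edgeR, with 1 each at an unadjusted p under 0.05, DESeq2 counts of 1 and 0, and 3 each with the block. Of the scavengers and partners of these proteins, 7 of 10 were tested and Hmox1, the haem oxygenase that degrades haem taken up with hemopexin, fell in the double knockdown (-0.74 ± 0.13) and in siHnf4a (-0.70 ± 0.13), the 1 call in each. Under the block 0 rose and 3 fell in the double knockdown, and 1 rose and 2 fell in siHnf4a. None passed in siCebpa, with 1 at an unadjusted p under 0.05, 0 by DESeq2 and 0 with the block.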

How the data were processed

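RNA of primary hepatocytes was extracted with TRIzol and sequenced on BGISEQ-500, per the labels. For each library the authors deposited estimated counts (expected counts) per gene, not normalized, and TPM values per gene. The submitters' processing notes name Trim Galore 0.6.4, kallisto 0.4.6 and the build GRCm38.p6, and the sources used here give neither annotation, strand setting nor filters. Gene ids were matched to GENCODE symbols on GRCm38, 55144 of 55385 after removal of the version.

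Expected counts were rounded and tested with edgeR 4.0.16 in R 4.3.3, with TMM factors (0.947 to 1.038), filterByExpr (0.42 CPM) and a quasi-likelihood F test on 1 mean per group over all 12 libraries (8 residual degrees of freedom). P-values were two-sided and adjusted by Benjamini-Hochberg over 15090 genes, at a threshold of 0.05. Values after ± are standard errors for log2 differences and SDs for TPM, and intervals are 95%. Groups came from the sample titles. The 10 genes and all lists were chosen with earlier results of these data known. In each list the genes named are up to 4 that passed with the largest differences, or else the most abundant, and any others named were picked out after their values were seen. Some items that the rule names are not reported here. Replicate numbers mark the mouse in the series' design, so they pair libraries. Deviations from the group means correlated over 18 same-mouse pairs with r of 0.156 to 0.684. Pairs of different mice gave r of -0.616 to 0.203, so these ranges overlapped. Subtracting a mean of 3 libraries also pulls the r of different mice down. Alternatives were mouse as a block (6 degrees of freedom), DESeq2 1.42.0, RLE factors, other filters on low values (none, or 1 CPM in 3 libraries), the compared groups alone, limma-trend 3.58.1 on log2 TPM with a pseudocount of 1 or 0.1, and leaving out each library. Those without mouse 1, and those leaving out a library with the block, were added after the data were seen. Replicates differed by more than counting error (chi-square per gene 17.2 to 125). The fitting code was tested on simulated data.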

Additional observations from a re-analysis of the deposited data

Results flagged for a closer look

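By CPM, the Orm1 ratio for adding the Cebpa siRNA differed in sign with and without the Hnf4a siRNA in every mouse. Orm1 was lower in the double knockdown than in siHnf4a in 3 of 3 mice, with log2 ratios of CPM of -0.39, -0.55 and -0.20. It was higher in siCebpa than in siCon in 3 of 3, with 0.32, 0.28 and 0.06. By TPM, Orm1 in mouse 3 was lower in siCebpa than in siCon, so the sign did not differ there. The difference between these effects, tested as the interaction in edgeR, was -0.64 ± 0.90 on the log2 scale (adjusted p = 0.87) and did not pass. With mouse as a block it was -0.61 ± 0.19 (adjusted p = 0.112). Cebpa fell less in the double knockdown than in siCebpa, so this interaction cannot be told apart from the weaker Cebpa knockdown there. Orm1 shares reads with Orm2, and the sum of Orm1, Orm2 and Orm3 gave -0.64 ± 0.92.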

How the results depend on the processing

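Of the 10 genes, 1 passed in the double knockdown against siCon, 1 in siHnf4a against siCon and 0 in the other 5 comparisons. With log2(TPM + 1) and no filter the first 2 counts were 0. Mouse as a replicate block gave 1 in the double knockdown against siCebpa and 2 in siHnf4a against siCebpa, and changed no other call on the 10 genes. Without the 4 libraries of mouse 1, the counts were 2 in each knockdown against siCon and 1 in siHnf4a against siCebpa. With the block and without mouse 1 they were 2 in the double knockdown, 4 in siHnf4a and 3 in siCebpa against siCon, 2 in the double knockdown against siCebpa, 4 in siHnf4a against siCebpa and 1 for the interaction. Leaving out 1 library at a time, with or without the block, gave 0 to 2 in the double knockdown and in siHnf4a against siCon, 0 to 3 in siCebpa against siCon, 0 to 2 in the double knockdown against siCebpa and in siHnf4a against siCebpa and 0 to 1 for the interaction. In the double knockdown against siHnf4a none passed under any alternative.

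Some log2 differences turned round. With the replicate block over all 12 libraries, none of them past the threshold, Saa1 in siHnf4a against siCon was 0.16 in place of -0.21, Saa3 0.23 in place of -0.38 and Orm2 0.02 in place of -0.16. Saa3 in the double knockdown was 0.12 in place of -0.42, Saa2 in siCebpa 0.22 in place of -0.05, Fgl1 in the double knockdown against siCebpa 0.15 in place of -0.01, Orm1 in siHnf4a against siCebpa 0.09 in place of -0.06 and the Saa2 interaction -0.21 in place of 0.10. Saa1 in the double knockdown against siCon was -0.38, but 0.50 without mouse 1, 0.51 with the block and without mouse 1, and 0.46 with the block and without siCon of mouse 1. In siHnf4a it was -0.21, but 0.72, 0.72 and 0.65 in these settings. Saa2 in siCebpa against siCon was -0.05, but 0.88 with the block and without siCon of mouse 1. Fgl1 in the double knockdown against siCebpa was -0.01, but 0.52 with the block and without mouse 1 and 0.50 with the block and without siCebpa of mouse 1. Without a block, leaving out 1 library gave -0.90 to 1.01 for Saa1 in the double knockdown and -0.68 to 1.18 in siHnf4a, -0.80 to 1.49 for Saa2 in siCebpa, and -0.33 to 0.78 for Fgl1 in the double knockdown against siCebpa, with siCon of mouse 1 left out at the top for Saa1 and Saa2. With the block, Saa2 passed in the double knockdown against siCon without siCon of mouse 3 (-1.23) or the double knockdown of mouse 3 (-1.28) and in siHnf4a without siCon of mouse 3 (-1.22), and Hp (-1.09), Hpx (-0.92) and Fgl1 (-0.80) passed in siCebpa without siCebpa of mouse 1. The cause was not tested.

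Over all genes, mouse as a block gave counts past the threshold of 4448 in place of 2117 for the double knockdown, 4533 in place of 2193 for siHnf4a and 2542 in place of 704 for siCebpa against siCon, 4121 in place of 1959 for the double knockdown and 4712 in place of 2442 for siHnf4a against siCebpa and 576 in place of 13 for the interaction. Over all alternatives the siCebpa count ran from 45 to 2836. DESeq2 called 1272 there and 210 for the interaction. By CPM in place of TPM, which is not scaled by length, the order of the 10 genes in siCon changed. Leaving out 1 of 3 libraries leaves 2 mice in a group, and 3 mice limit all these tests.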

Other observations

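Crp and Hamp, acute phase genes of the liver outside the 10, are given as values picked out after they were seen. C-reactive protein, a minor acute phase reactant in mice, had 181, 70.7 and 9.87 TPM in the double knockdown, 274, 184 and 62.5 in siHnf4a, 218, 43.7 and 3.37 in siCebpa and 251, 87.7 and 42.4 in siCon, highest in mouse 1 and lowest in mouse 3 in every group. Hepcidin, the iron-regulatory hormone encoded by Hamp, had 2117, 2775 and 5597 TPM in the double knockdown, 1868, 3331 and 5196 in siHnf4a, 1069, 715 and 475 in siCebpa and 1139.8, 2738 and 2467 in siCon. Hamp was higher in the double knockdown than in siCebpa (2.05 ± 0.49 on the log2 scale, edgeR, adjusted p = 0.0198) and higher in siHnf4a than in siCebpa (1.97 ± 0.48, adjusted p = 0.0195), while its differences from siCon were 0.78 ± 0.47 in the double knockdown, 0.70 ± 0.47 in siHnf4a and -1.27 ± 0.48 in siCebpa and did not pass. Its close copy Hamp2 makes the division of its reads uncertain.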
